A study of Mus musculus with 9 samples.

Results

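Cebpb, Cebpd, Klf9, Tsc22d3, Fkbp5, Sgk1, Dusp1, Errfi1, Ddit4 and Zfp36, a set of genes known to be switched on by glucocorticoids and by cellular stress, were examined in fibroblasts sorted from metastatic lungs of mice given doxorubicin (DOX) or PBS. The 10 genes were chosen by name, and all 10 were found among the 55302 gene symbols of the data. Bulk RNA-seq was performed on 9 libraries, 5 from DOX-treated and 4 from PBS-treated mice, each labelled as a biological replicate and treated by the study as a mouse of its own. Doxorubicin, an anthracycline that damages DNA, was given as 2 doses of 5 mg/kg, 5 days apart, and the fibroblasts were collected at an early metastatic stage, 24 h after the final dose. The labels call the control treatment both PBS and saline. All mice, controls included, were females that had received breast cancer cells in the mammary gland at 8 weeks of age and had had the primary tumor removed 2 weeks later, 4 days before the first dose. The methods describe the model with 4T1 cells and with EO771 cells, hosts being BALB/c or C57BL/6 according to the cell line, and do not state which of them gave these libraries. The sorted cells were CD45-, EpCAM-, CD31- and PDGFRα+ according to the methods, whereas the labels leave out CD31.

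Glucocorticoids are steroid hormones of the adrenal cortex that rise with stress. They enter the cell and bind the glucocorticoid receptor, encoded by Nr3c1, which leaves its chaperones, moves to the nucleus and binds response elements near its target genes. Lung fibroblasts are a classical target of these hormones, and in lung tissue the receptor restrains inflammatory gene expression. Several of its targets are feedback inhibitors, acting on MAP kinases, on inflammatory mRNAs, on mTORC1 or on the receptor itself. Many of the same genes also respond to serum, cytokines, hypoxia, unfolded proteins or the dissociation of a tissue, so that their RNA level alone does not name the signal.

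Promoter sequences are shown for Sgk1, Tsc22d3, Dusp1 and Errfi1, since these hold letters that the glucocorticoid receptor or the cAMP-responsive factor CREB is known to bind. RefSeq promoters on GRCm38.p6, each running from 250 bases before a start site to 50 bases after it, were matched for 9 of the 10 genes, with 17 start sites in all. The palindrome of AGAACA, any 3 bases and TGTTCT, the consensus of the glucocorticoid response element, was searched on both strands and was present in 3 of 32851 mouse promoters (0.00913%), of which 1 belonged to Sgk1. Its left part, AGAACA, is the hexamer to which a single receptor binds, and was found in 19.0% of all promoters. Of the 17 promoters it was found in 4, which belong to Sgk1 and Tsc22d3. The cAMP response element TGACGTCA was found in 1.79% of all promoters and in those of Dusp1 and Errfi1. In the sequences that follow, the capitals mark the response element in Sgk1 (chr10:21993640-21993939, plus strand), which ended 175 bases before the start site. They mark the hexamer, on the opposite strand, in Tsc22d3 (chrX:140600473-140600772, minus strand). They mark the cAMP response element in Dusp1 (chr17:26508423-26508722, minus strand) and in Errfi1 (chr4:150854820-150855119, plus strand), 136 and 44 bases before the start site.
Sgk1 promoter: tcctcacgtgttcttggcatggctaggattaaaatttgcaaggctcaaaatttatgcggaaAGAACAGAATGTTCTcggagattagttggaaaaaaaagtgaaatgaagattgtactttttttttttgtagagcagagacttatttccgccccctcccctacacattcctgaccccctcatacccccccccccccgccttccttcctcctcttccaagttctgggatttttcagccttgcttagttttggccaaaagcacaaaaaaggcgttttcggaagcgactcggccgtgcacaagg
Tsc22d3 promoter: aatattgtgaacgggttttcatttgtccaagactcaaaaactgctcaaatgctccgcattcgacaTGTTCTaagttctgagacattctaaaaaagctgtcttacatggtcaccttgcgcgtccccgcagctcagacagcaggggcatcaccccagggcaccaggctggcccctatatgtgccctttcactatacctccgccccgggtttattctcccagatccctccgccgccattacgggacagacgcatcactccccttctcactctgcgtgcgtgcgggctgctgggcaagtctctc
Dusp1 promoter: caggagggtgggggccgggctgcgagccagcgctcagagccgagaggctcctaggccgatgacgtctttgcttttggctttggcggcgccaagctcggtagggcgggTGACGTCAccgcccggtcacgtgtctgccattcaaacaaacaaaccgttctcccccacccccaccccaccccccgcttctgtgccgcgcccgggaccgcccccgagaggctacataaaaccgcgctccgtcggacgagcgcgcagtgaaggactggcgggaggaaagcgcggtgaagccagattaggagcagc
Errfi1 promoter: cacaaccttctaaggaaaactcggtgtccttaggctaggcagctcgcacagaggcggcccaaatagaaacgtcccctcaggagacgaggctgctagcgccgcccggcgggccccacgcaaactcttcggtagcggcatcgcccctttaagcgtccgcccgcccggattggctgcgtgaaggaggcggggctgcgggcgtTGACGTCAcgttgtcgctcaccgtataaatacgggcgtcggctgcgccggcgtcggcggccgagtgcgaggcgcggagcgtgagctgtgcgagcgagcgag
Of the other motifs searched, the C/EBP palindrome TTGCGCAA (0.183% of all promoters) and a serum response element of CC, ATATTA and GG (0.0639%) were found in none of the 17 promoters. The AP-1 site TGANTCA (7.81%) was found in Klf9, and the TATA box TATAAA (13.6%) in Cebpb, Errfi1 and Sgk1. These are matches of letters, and no measurement of binding was made.

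Values are normalized counts, that is, the reads of a gene scaled by the size factor of its library. They are not divided by gene length, since MARS-seq captures transcripts by their 3′ ends. The libraries held 432322 to 1285816 reads in DOX and 497637 to 734114 reads in PBS. In DOX replicate 2, 35.3% of the reads fell on a ribosomal RNA gene, against 5.74 to 16.8% in the other 8 libraries. PBS replicate 4 stood apart in markers of other cell types. The summed granulocyte markers were at 1185 there, against 65.8 to 91.1 in DOX and 23.97 to 37.9 in the other PBS libraries. Outside PBS replicate 4, much of that sum was the single gene Ly6g. Ly6g was at 49.7 to 84.4 in DOX, 81.8 in PBS replicate 4 and 30.6 or less in the other PBS libraries. S100a8 was at 756 in PBS replicate 4 and at 15.3 or less in all other libraries. Whether DOX libraries held more granulocytes than the other PBS libraries was not tested. The pan-immune markers were at 365 in PBS replicate 4, against 6.50 to 48.2 in DOX and 10.6 to 18.9 in the other PBS libraries. Epithelial markers were at 487 in PBS replicate 4, against 44.5 to 181 in DOX and 15.8 to 36.6 in the other PBS libraries, and red blood cell markers at 81.8, against 3.06 to 7.17 in DOX and 0 to 6.31 in the other PBS libraries. The fibroblast markers summed to 1206 in PBS replicate 4, against 1656 to 2190 in DOX and 2391 to 2862 in the other PBS libraries. Endothelial markers were also highest in PBS replicate 4, at 223, against 85.8 to 155 in DOX and 72.9 to 121 in the other PBS libraries. Smooth muscle and pericyte markers summed to 87.2 to 215 in DOX and 138 to 203 in PBS, and monocyte and macrophage markers to 205 to 294 in DOX and 205 to 299 in PBS. The former sum was almost all Tagln, at 85.4 to 210 in DOX and 134 to 188 in PBS. The latter was almost all Csf1r, at 201 to 288 in DOX and 189 to 293 in PBS. The value of Tagln is uncertain, since the antisense gene Gm48529 over its exons averaged 195 ± 57.8 in DOX and 301 ± 152 in PBS. Exons of Csf1r overlap those of Hmgxb3 on the other strand, which averaged 5.90 in DOX and 2.90 in PBS. Lymphocyte markers summed to 11.2 to 18.4 in DOX and 2.11 to 17.0 in PBS, and mesothelial markers to 0 to 7.47 in DOX and 2.00 to 6.33 in PBS. Of the sorting genes, Pdgfra was counted at 4.50 ± 3.51 in DOX and 4.31 ± 5.22 in PBS (SD, n = 5 and 4). Pecam1, which encodes CD31, was above 0 in all 9 libraries, at 4.56 ± 1.17 in DOX and 5.12 ± 3.62 in PBS. Ptprc, which encodes CD45, was above 0 in 4 libraries and Epcam in 3 of the 9. How the counts treated the strand is not stated, and overlapping genes on opposite strands, given after the values of the 10 genes, limit how far each value stands for the gene it is named after. In bulk RNA, fewer cells of a type and less RNA per cell cannot be told apart.

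None of the 10 genes differed between DOX and PBS fibroblasts beyond the spread between libraries, and the DOX and PBS ranges overlapped for every one of them. Going by the mean of the log2 values, 5 genes were higher in DOX (Dusp1, Tsc22d3, Sgk1, Ddit4 and, by a margin under 0.01 on the log2 scale, Zfp36) and 5 were lower (Cebpb, Cebpd, Klf9, Fkbp5 and Errfi1). Without PBS replicate 4, which held the lowest PBS value of 5 of the 10 genes, 2 were higher. For comparison, DOX had the higher mean in 49.4% of the genes tested and in 51.2% of all 17428 genes above 0. The test was limma on log2(normalized count + 1), with Benjamini-Hochberg adjustment over all 2604 genes that reached 10 in at least 4 libraries. Only Cebpb, Cebpd, Dusp1 and Zfp36 passed that filter, and 0 of these 4 were called at an adjusted p of 0.05, where the share of all genes called was 0%. At an unadjusted p of 0.05, 0 of the 4 passed, against 6.22% of all genes, and 0 of the 4 had groups that did not overlap, against 2.65%. edgeR, DESeq2 and limma-voom also called 0 of the 2604 genes, with 148, 173 and 160 genes under an unadjusted p of 0.05. DESeq2 gave no adjusted p for Cebpb, Dusp1 and Zfp36, and so could not call them.

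The other 6 genes were too low for the filter, and their fits come from limma over all 17428 genes above 0, in which 0 of the 6 were called, against 0.0172% of all genes, and 0 had an unadjusted p under 0.05, against 2.63%. No fold change is given for Ddit4, whose counts did not exceed 3 reads in any library. Over the 9 genes with a fold change the median was -0.06, and over all tested genes it was -0.01. Together the 10 genes held 3500 of the 6303233 reads, or 0.0555%. Within groups, the reads of the 9 genes gave a chi-square of 3.10 to 10.9 per degree of freedom, where counting error alone gives 1. Known changes were also added to simulated counts of this comparison, in genes with a mean of at least 10 and with 1 spread shared by all genes. Limma called 33.3% of those of 4-fold and 0% of those of 2-fold, with 2615 genes in the test. These shares are of genes past the filter, so they do not describe the 6 genes below it.

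**Figure D1:**
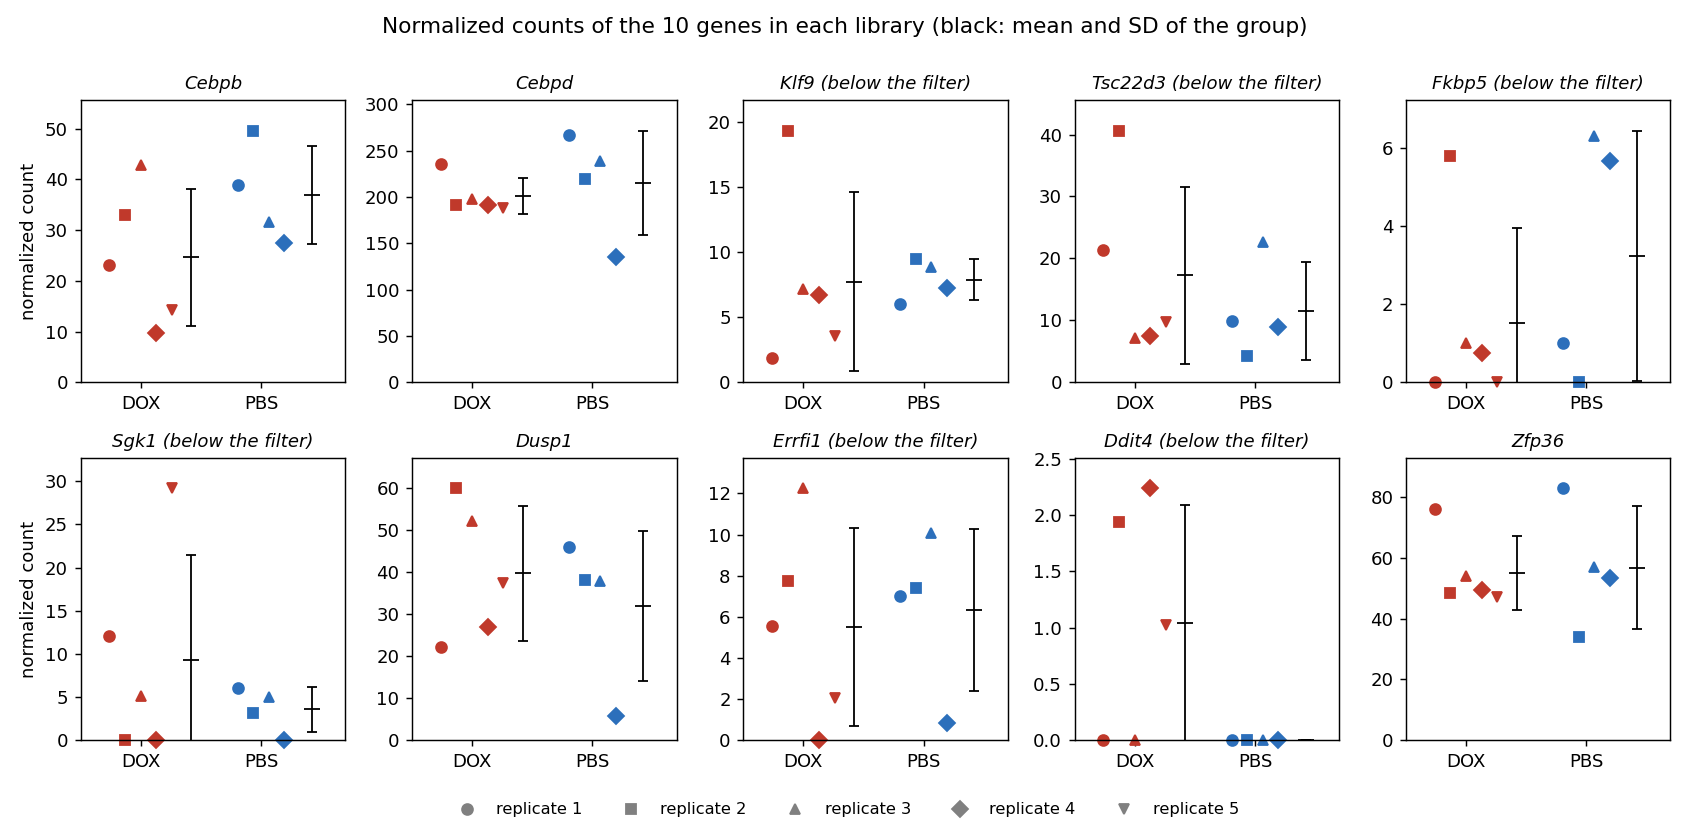
Normalized counts (y axis, a linear scale of its own in each panel) of the 10 genes in the 5 DOX (red, left) and 4 PBS (blue, right) libraries, with the marker shape giving the replicate number and the black bars the mean and SD of each group, drawn down to 0 where they cross it. The groups overlap in every panel, Dusp1 and Cebpd are lowest in PBS replicate 4, and Tsc22d3 and Klf9 are highest in DOX replicate 2.

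**Figure D2:**
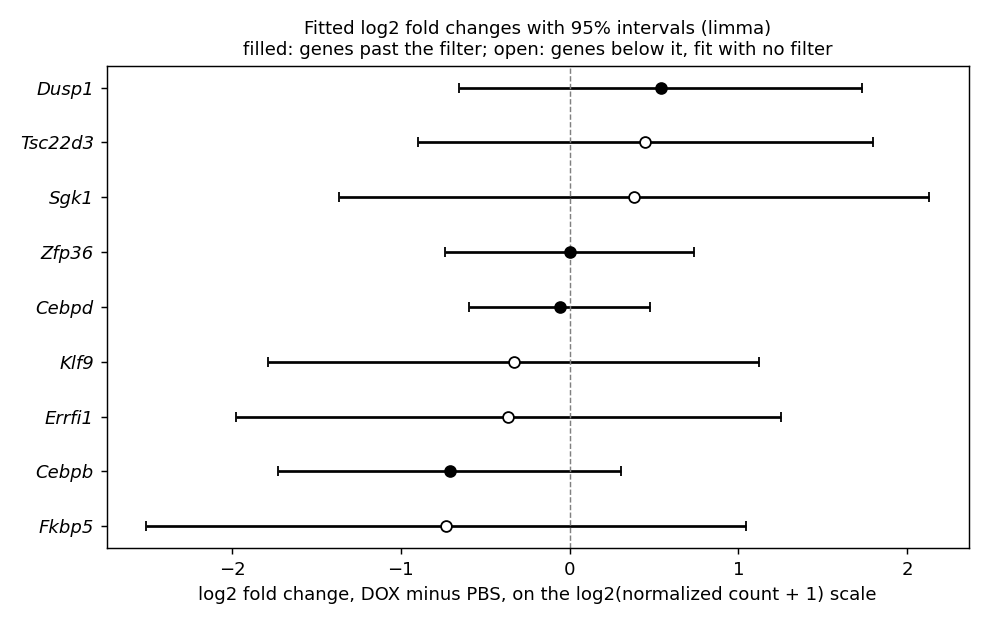
Fitted log2 fold change of DOX over PBS (x axis) with its 95% interval for the 9 genes with a fold change, from limma over genes past the filter (filled) or over all genes above 0 (open). Every interval crosses 0, and the narrowest, that of Cebpd, runs from -0.60 to 0.48.

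Among the transcription factors, Cebpb (chr2:167688915-167690418, plus strand, mm10) encodes C/EBPβ, a leucine zipper factor of inflammatory and acute phase gene expression that cooperates with the glucocorticoid receptor. Normalized counts of Cebpb were 23.2, 32.9, 42.9, 9.71 and 14.3 in DOX replicates 1 to 5, against 39.0, 49.6, 31.6 and 27.5 in PBS replicates 1 to 4. DOX replicates 1, 4 and 5 lay below all PBS libraries, while DOX replicates 2 and 3 lay among them. The mean was 24.6 ± 13.5 in DOX and 36.9 ± 9.69 in PBS (SD, n = 5 and 4), with a log2 fold change of -0.71 (SE 0.48, 95% interval -1.73 to 0.31, limma adjusted p = 0.821). Of the 4 tested genes Cebpb had the largest fitted difference, and it was lower in DOX in the main fit and in all alternatives, with a log2 fold change of -0.98 to -0.44 and no call.

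Cebpd (chr16:15887286-15891031, plus strand) encodes C/EBPδ, a relative of C/EBPβ that is rapidly induced by glucocorticoids and cytokines. It held the most reads of the 10 genes, 99 to 368 per DOX library and 167 to 267 per PBS library. Normalized counts were 236, 192, 198, 191 and 189 in DOX, against 267, 220, 239 and 135 in PBS. The DOX libraries lay close together, inside the PBS range, with PBS replicate 4 the lowest of the 9 libraries. Means were 201 ± 19.7 in DOX and 215 ± 56.6 in PBS, and the log2 fold change was -0.06 (SE 0.25, 95% interval -0.60 to 0.48, limma adjusted p = 0.985). Without PBS replicate 4 it was -0.26, and without PBS replicate 1 it was 0.06.

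Klf9 (chr19:23141226-23168134, plus strand) encodes a Krüppel-like zinc finger repressor that is a direct target of the receptor in many tissues. Its normalized counts were 1.86, 19.4, 7.15, 6.72 and 3.59 in DOX, against 5.99, 9.50, 8.84 and 7.29 in PBS. The PBS libraries were alike, with 6 to 9 reads each, whereas the DOX libraries included both the lowest and the highest value. The highest, DOX replicate 2, is the library rich in ribosomal RNA. Klf9 averaged 7.73 ± 6.86 in DOX and 7.91 ± 1.58 in PBS, with a log2 fold change of -0.33 (SE 0.73, 95% interval -1.79 to 1.13). It was -0.72 without DOX replicate 2 and -0.0069 without DOX replicate 1, the lowest library.

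Among the genes that act back on the receptor or on inflammatory factors, Tsc22d3 (chrX:140539528-140600659, minus strand) encodes GILZ, a leucine zipper protein that binds NF-κB and AP-1 and carries part of the anti-inflammatory action of glucocorticoids. Its normalized counts were 21.3, 40.6, 7.15, 7.47 and 9.73 in DOX, against 9.99, 4.22, 22.7 and 8.91 in PBS. DOX replicates 1 and 2 and PBS replicate 3 were high, and the other 6 libraries lay between 4.22 and 9.99. Means were 17.3 ± 14.3 in DOX and 11.5 ± 7.91 in PBS, and the log2 fold change of 0.45 (SE 0.68, 95% interval -0.90 to 1.80) became 0.07 without DOX replicate 2, 0.10 without PBS replicate 2 and 0.83 without PBS replicate 3. Fkbp5 (chr17:28399094-28517527, minus strand) encodes FKBP51, a co-chaperone of HSP90 that lowers the receptor's affinity for hormone and is itself induced by it. It was counted at 0, 5.81, 1.02, 0.747 and 0 in DOX, against 0.999, 0, 6.31 and 5.67 in PBS. These are 0 to 3 reads per DOX library and 0 to 7 per PBS library, and 3 libraries held no read. Means were 1.52 ± 2.44 in DOX and 3.25 ± 3.21 in PBS, with a log2 fold change of -0.73 (SE 0.89, 95% interval -2.51 to 1.04), so that a change in either direction was not detectable at this depth. It was -0.33 without PBS replicate 3, -0.37 without PBS replicate 4, -1.20 without DOX replicate 2, -1.29 without PBS replicate 2 and -1.32 with edgeR.

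Among the regulators of kinases, Sgk1 (chr10:21882184-21999903, plus strand) encodes a kinase of the AKT family that acts on ion transport and cell survival. Its normalized counts were 12.1, 0, 5.11, 0 and 29.2 in DOX, against 5.99, 3.17, 5.05 and 0 in PBS. DOX held the highest value, with 57 reads in DOX replicate 5, but also 2 of the 3 libraries without a read. Means were 9.27 ± 12.2 in DOX and 3.55 ± 2.64 in PBS, and the log2 fold change was 0.38 (SE 0.88, 95% interval -1.37 to 2.13), turning to -0.29 without DOX replicate 5 and to -0.24 without PBS replicate 4. It was 0.94 without DOX replicate 2 or without DOX replicate 4, both without a read, and 1.47 with edgeR and 1.43 with DESeq2, with no call. Sgk1 had the widest spread for its counting error of the 9 genes, at 10.9 per degree of freedom.

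Dusp1 (chr17:26505590-26562128, minus strand) encodes MKP-1, a phosphatase that switches off p38 and JNK and is a main mediator of the anti-inflammatory action of glucocorticoids. Its normalized counts were 22.3, 60.0, 52.1, 26.9 and 37.4 in DOX, against 46.0, 38.0, 37.9 and 5.67 in PBS. PBS replicate 4, with 7 reads, was far below the other 8 libraries, and the remaining PBS libraries lay within the DOX range. Means were 39.7 ± 16.1 in DOX and 31.9 ± 17.9 in PBS, with a log2 fold change of 0.54 (SE 0.56, 95% interval -0.66 to 1.73, limma adjusted p = 0.894). Without PBS replicate 4 the sign turned, at -0.12, and without both PBS replicate 4 and DOX replicate 2 it was -0.29, whereas without PBS replicate 1 it was 0.82. Errfi1 (chr4:150853919-150868892, plus strand) encodes MIG6, a feedback inhibitor that binds the kinase domain of the EGF receptor. Its normalized counts were 5.57, 7.74, 12.3, 0 and 2.05 in DOX, against 6.99, 7.39, 10.1 and 0.810 in PBS. As in Dusp1, PBS replicate 4 was the lowest PBS library, with 1 read, while DOX replicate 4 held none. Means were 5.52 ± 4.82 in DOX and 6.32 ± 3.93 in PBS, and the log2 fold change of -0.36 (SE 0.81, 95% interval -1.98 to 1.25) turned to 0.20 without DOX replicate 4, and was -0.94 without PBS replicate 4.

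Ddit4 (chr10:59949669-59951834, minus strand) encodes REDD1, an inhibitor of mTORC1 that is induced by DNA damage, hypoxia and glucocorticoids. It held 0, 1, 0, 3 and 2 reads in DOX replicates 1 to 5 and none in the 4 PBS libraries. Normalized counts were 0, 1.94, 0, 2.24 and 1.02 in DOX, against 0 in each PBS library, where a count of 0 allows up to 3 reads per library. Both groups thus lay at or under that limit, and no difference was detectable at this depth. Zfp36 (chr7:28376784-28380253, minus strand) encodes tristetraprolin, which binds AU-rich elements of cytokine mRNAs and leads to their decay. Its normalized counts were 76.1, 48.4, 54.1, 49.3 and 47.1 in DOX, against 82.9, 33.8, 56.8 and 53.5 in PBS. The DOX libraries lay inside the PBS range, with replicate 1 the highest of DOX and the highest of PBS. Means were 55.0 ± 12.1 in DOX and 56.7 ± 20.2 in PBS, and the log2 fold change was 0.00 (SE 0.35, 95% interval -0.74 to 0.74, limma adjusted p = 0.999).

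Library by library, 5 of the 10 genes had their lowest PBS value in PBS replicate 4 and 2 had their lowest value of all 9 libraries there, against 28.8% and 13.3% of all tested genes. The 5 include Sgk1 and Errfi1, which lie below the filter, whereas the shares cover only genes past it. DOX replicate 2 held the highest value of 3 genes, Klf9, Tsc22d3 and Dusp1. The 10 genes summed to 398, 408, 380, 294 and 333 in DOX, against 465, 365, 418 and 245 in PBS, where PBS replicate 4 was the lowest of the 9. Cebpd held a large part of these sums. Without it they were 162, 217, 182, 103 and 144 in DOX, against 198, 146, 179 and 109 in PBS. The lowest of the 9 was then DOX replicate 4. Over the 9 libraries, the tested genes with the pattern most like that of Cebpd, by Pearson's r of log2(normalized count + 1), were Fam166b (r = 0.96), Polr2b (0.95) and Igf2r (0.94). For Zfp36 they were Ftl1 (0.86), Ap3d1 (0.85) and Slc7a7 (0.84), and for Dusp1 Fbln1 (0.94), Tspyl1 (0.93) and Cux2 (0.90). These are the highest of 2603 correlations each, over libraries that share their depth and PBS replicate 4, and are given as a description.

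Counts of these genes also have to be read with the strand in mind. MARS-seq keeps the strand of the transcript, and the setting with which the strand was counted is not given in the sources used here. In 7 pairs of genes whose exons overlap at the 3′ end of the first named, chosen with their values known, more reads were found under the gene on the opposite strand. Igfbp7, which encodes a secreted binding protein of fibroblasts and vessels, averaged 93.1 over the 9 libraries, whereas Polr2b on the opposite strand averaged 41571.5. Timp3, a metalloproteinase inhibitor, averaged 36.0 and Syn3, a gene of neuronal synapses, 12281, and Selenop, a selenium carrier, 28.8 and Ccdc152 16872. For Ppib and Snx22 the means were 123 and 8021, for Rarres2 and Lrrc61 120 and 20171, for Chpf2 and Smarcd3 374 and 734, and for Hspb6 and Lin37 7.07 and 16.2. The opposite gene was higher in all 9 libraries for 5 of these 7 pairs, in 8 for Chpf2 and in 6 for Hspb6. The values of the glucocorticoid and stress genes may leave out most reads of their own transcripts, and how large that part is was not tested.

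For 4 of the 10 genes an annotated exon on the other strand overlaps, in GENCODE M21. Cebpd overlaps with the 3′ end of Spidr, a DNA repair scaffold, at chr16:15889224-15889785, and Spidr was the higher of the pair in 9 of 9 libraries. Spidr was counted at 592, 499, 572, 351 and 395 in DOX, against 406, 529, 337 and 284 in PBS. The groups overlapped, with means of 482 ± 106 in DOX and 389 ± 106 in PBS and a log2 fold change of 0.32 (SE 0.25, limma adjusted p = 0.853). Since reads of one gene can be counted under the other, the values of Cebpd and Spidr are uncertain. Cebpb overlaps with Tmem189 at chr2:167689511-167689822, and Tmem189 was low, at 10.6 ± 11.9 in DOX and 5.61 ± 3.65 in PBS. Zfp36 overlaps with the antisense gene Gm44710 at chr7:28378980-28379104, which averaged 12.5 ± 8.79 in DOX and 9.05 ± 3.89 in PBS. Dusp1 overlaps over a few bases with Ergic1, at 3.79 ± 3.25 in DOX and 1.76 ± 1.84 in PBS. Only gene bodies, not exons, overlap for Fkbp5 and Errfi1, and the opposite genes Gm22146 and 1700045H11Rik were at 0 in all libraries, as was Gm8225 within Dusp1. Klf9, Tsc22d3, Sgk1 and Ddit4 have no annotated gene on the other strand.

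**Figure D3:**
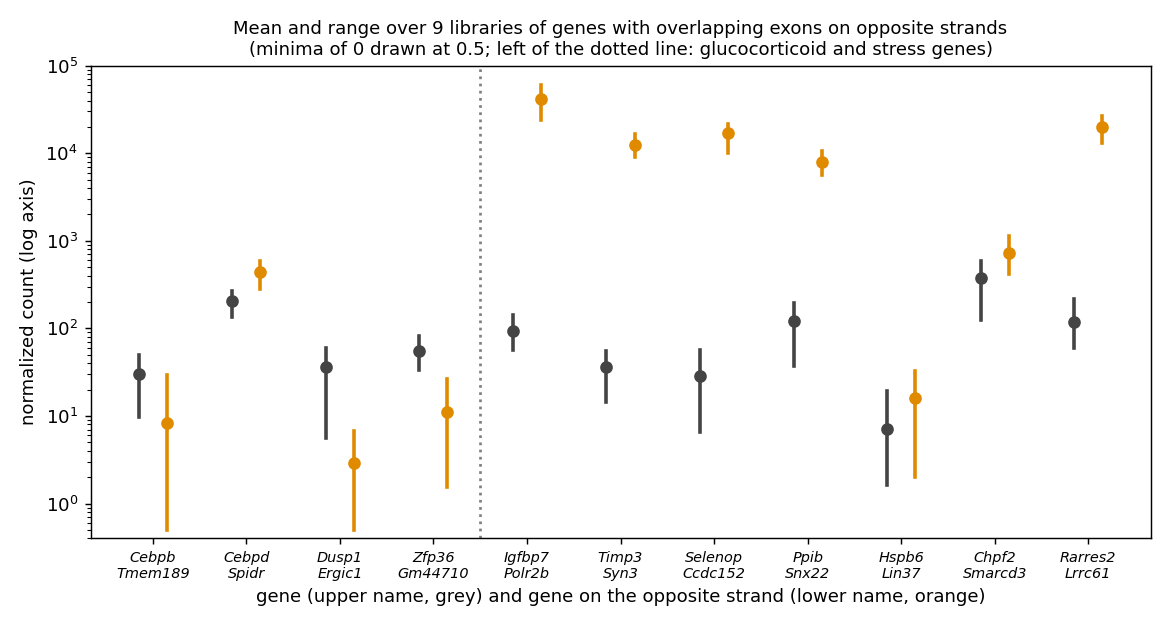
Mean normalized count over the 9 libraries (points, log axis) and range (bars, with a minimum of 0 drawn at 0.5) of genes whose exons overlap on opposite strands, the upper name in grey and the opposite gene in orange. Left of the dotted line Spidr lies above Cebpd while Tmem189, Ergic1 and Gm44710 lie below Cebpb, Dusp1 and Zfp36, and right of it the opposite gene lies above in each of the 7 pairs.

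To place the 10 genes in their pathways, 150 genes in 14 lists of relatives, partners and other targets were examined. Of these 44 passed the filter, and 0 were called by limma, while 27 had a higher and 17 a lower fitted mean in DOX. The share with a higher mean, 61.4%, compares with 49.4% of all tested genes. An unadjusted p under 0.05 was found for 3 of the 44, Glul, Mt1 and Mt2, all higher in DOX. Among all tested genes, 6.22% passed that threshold in either direction, and 3.03% passed it and were higher in DOX.

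Other genes known to be induced through the receptor numbered 24, of which 5 were tested, 3 higher and 2 lower in DOX, with 0 called. The lower ones were Nfkbia (log2 fold change -0.70, SE 0.37, limma adjusted p = 0.769) and Tgm2 (-0.14, SE 0.44, limma adjusted p = 0.977). Exons of Tgm2 overlap with those of genes on the other strand. Glul, which encodes glutamine synthetase, was counted at 32.5, 23.2, 13.3, 67.2 and 16.9 in DOX, against 5.99, 8.44, 2.52 and 7.29 in PBS. Every DOX library was above every PBS library, a pattern found in 1.27% of all tested genes. Glul was named for its low p in this list, so that share is only a description. The mean was 30.6 ± 21.7 in DOX and 6.06 ± 2.56 in PBS, with a log2 fold change of 2.02 (SE 0.62) that did not pass adjustment (limma adjusted p = 0.647). Teddm2, whose exons overlap the first bases of Glul on the other strand, averaged 9.04 ± 4.82 in DOX and 3.96 ± 4.59 in PBS. Mt1, a metallothionein that binds zinc and copper and is also induced by metals, was likewise higher in every DOX library, at 536 to 965 in DOX and 382 to 478 in PBS, with a log2 fold change of 0.66 (SE 0.22, limma adjusted p = 0.659). Mt2, its neighbour, averaged 655 ± 290 in DOX and 377 ± 118 in PBS, with overlapping groups and a log2 fold change of 0.74 (limma adjusted p = 0.761). The antisense gene Gm45774, which overlaps the exons of Mt2, averaged 33834 ± 16563 in DOX and 21521 ± 1742 in PBS, so that the values of Mt2 are uncertain.

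**Figure D4:**
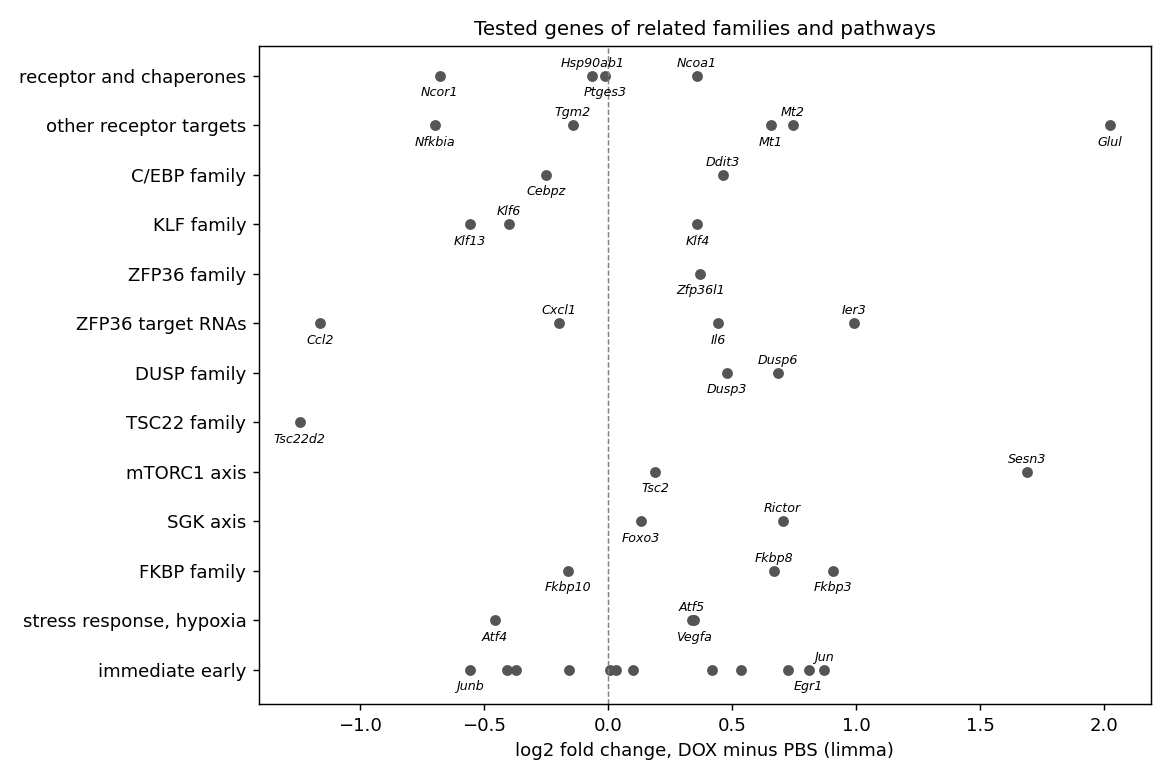
Fitted log2 fold change of DOX over PBS (x axis) of the 44 tested genes of related families and pathways, 1 row per list and 1 point per gene, with the names of the genes described in the text and some others. Glul lies farthest right at 2.02 and Tsc22d2 farthest left at -1.25, and none passed the adjusted test.

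The receptor itself, Nr3c1, was below the filter, at 3.05 ± 1.69 in DOX and 7.50 ± 7.56 in PBS. Of the 14 genes of the receptor, its activation and its cofactors, 4 were tested, 1 higher and 3 lower in DOX, with 0 called. The corepressor Ncor1 averaged 21.2 ± 11.1 in DOX and 32.6 ± 12.1 in PBS, the coactivator Ncoa1 27.0 ± 8.44 in DOX and 21.9 ± 11.3 in PBS, and the chaperone Hsp90ab1 67.6 ± 19.8 in DOX and 69.0 ± 9.41 in PBS. Ncoa1 is uncertain, since the antisense gene 4921501I09Rik over its exons was higher, at 39.6 ± 13.3 in DOX and 80.2 ± 42.4 in PBS, and so is Ncor1, whose exons touch those of the higher Ttc19. Some further targets were low as well. Per1, a clock gene, averaged 1.62 in DOX and 1.80 in PBS, and Zbtb16, a zinc finger repressor, 0.512 in DOX and 1.29 in PBS. Hsd11b1, the enzyme that makes active glucocorticoid from its inert form, was found in 4 of 5 DOX libraries, with 1 to 4 reads each, and in none of the PBS libraries. A count of 0 allows up to 3 reads per library, and the groups overlapped (limma over all genes above 0, adjusted p = 0.781). Nr3c1, Per1, Zbtb16 and Hsd11b1 were named after their values were seen.

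In the C/EBP family, 2 of 5 relatives were tested and 0 called, 1 higher and 1 lower in DOX. Ddit3, which encodes the stress factor CHOP, averaged 179 ± 59.8 in DOX and 126 ± 18.7 in PBS (log2 fold change 0.46, limma adjusted p = 0.804), and Cebpz 20.3 ± 27.2 in DOX and 15.9 ± 5.90 in PBS. The fitted log2 fold change of Cebpz was nonetheless -0.25, since its mean in DOX rests on 68.7 in DOX replicate 4, against 5.81 to 11.2 in the other DOX libraries. Exons on the other strand overlap in both, and the opposite genes Mars (412 ± 48.9 in DOX and 373 ± 116 in PBS) and Cebpzos (77.6 ± 37.9 in DOX and 94.6 ± 39.5 in PBS) were higher, so that these values are uncertain. Among other Krüppel-like factors 3 of 10 were tested and 0 called, 1 higher and 2 lower in DOX, with Klf13 at 214 ± 61.1 in DOX and 311 ± 65.1 in PBS (log2 fold change -0.56, limma adjusted p = 0.761). Klf4 averaged 14.05 ± 4.89 in DOX and 11.2 ± 5.15 in PBS, and Klf6 7.86 ± 8.33 in DOX and 10.9 ± 10.4 in PBS. Of the TSC22 family, 1 of 3 was tested and was not called, Tsc22d2, at 11.1 ± 12.04 in DOX and 13.8 ± 7.31 in PBS. Of the FKBP family, 3 of 10 were tested and 0 called. Fkbp8 averaged 14.5 ± 6.94 in DOX and 8.06 ± 2.39 in PBS, Fkbp3 9.30 ± 5.27 in DOX and 6.10 ± 9.34 in PBS, and Fkbp10 9.08 ± 6.80 in DOX and 9.44 ± 3.68 in PBS. Prpf39, which overlaps the 3′ end of Fkbp3 on the other strand, was far higher, at 247 ± 51.1 in DOX and 163 ± 34.5 in PBS, so that the value of Fkbp3 is uncertain.

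Of 12 mRNAs that tristetraprolin is known to bind, 4 were tested and 0 called, 2 higher and 2 lower in DOX. Ier3, an early response gene, averaged 17.2 ± 7.83 in DOX and 8.43 ± 5.31 in PBS (log2 fold change 0.99, limma adjusted p = 0.806), the monocyte chemoattractant Ccl2 10.8 ± 8.03 in DOX and 19.7 ± 10.1 in PBS (log2 fold change -1.16, limma adjusted p = 0.820), and the neutrophil chemoattractant Cxcl1 61.0 ± 23.9 in DOX and 67.0 ± 15.8 in PBS. Among the 4 other decay factors of the tristetraprolin kind, 1 was tested and not called, Zfp36l1, at 12.9 ± 4.67 in DOX and 11.3 ± 7.63 in PBS. Of 10 other MAP kinase phosphatases, 2 were tested and 0 called, both higher in DOX. Dusp6, which acts on ERK, averaged 11.5 ± 7.38 in DOX and 6.24 ± 5.87 in PBS, and Dusp3 111 ± 71.2 in DOX and 71.3 ± 32.3 in PBS. The value of Dusp3 is uncertain, since the antisense gene Gm20659 over its exons was counted at 622 ± 161 in DOX and 813 ± 316 in PBS.

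Of 11 genes around mTORC1, the complex that REDD1 inhibits, 2 were tested and 0 called, both higher in DOX. Tsc2, which encodes tuberin, averaged 3079 ± 241 in DOX and 2713 ± 356 in PBS, but its exons overlap with the 3′ end of Pkd1, and its value is uncertain. Sesn3, a sestrin, was found in 3 of 5 DOX and 1 of 4 PBS libraries. Of 8 relatives and partners of Sgk1, 2 were tested and 0 called. Rictor, a part of the mTORC2 complex that activates SGK1, averaged 15.4 ± 5.97 in DOX and 12.4 ± 11.1 in PBS, and Foxo3, a substrate, 140 ± 52.7 in DOX and 126 ± 47.8 in PBS. The 11 receptors and ligands of the EGF receptor axis that MIG6 acts on were all below the filter, with sums of 2.24 to 21.3 in DOX and 4.86 to 10.99 in PBS.

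Stress programs outside the receptor were measured in 2 lists. Of 12 genes of the integrated stress response and hypoxia, 3 were tested and 0 called, 2 higher and 1 lower in DOX. Atf4, the transcription factor of the integrated stress response, averaged 82.6 ± 45.1 in DOX and 104 ± 35.4 in PBS, Atf5 34.5 ± 8.26 in DOX and 27.8 ± 10.9 in PBS, and the angiogenic factor Vegfa 18.6 ± 10.96 in DOX and 14.7 ± 8.97 in PBS. Immediate early genes, which also rise when a tissue is dissociated, were the best covered list, with 12 of 16 tested, 8 higher and 4 lower in DOX, 0 called and a median log2 fold change of 0.07. Their sums overlapped, at 559 to 900 in DOX and 606 to 875 in PBS. Junb averaged 256 ± 89.9 in DOX and 361 ± 22.4 in PBS (log2 fold change -0.56, limma adjusted p = 0.761), whereas Egr1 averaged 106 ± 32.8 in DOX and 68.6 ± 38.0 in PBS (0.81, adjusted p = 0.775) and Jun 37.0 ± 19.0 in DOX and 19.7 ± 10.1 in PBS (0.87, adjusted p = 0.796). The antisense gene Junos, which overlaps the exon of Jun, was higher than Jun, at 62.6 ± 23.2 in DOX and 39.3 ± 18.7 in PBS, so that the value of Jun is uncertain. Like Dusp1, Egr1 and Jun were lowest in PBS replicate 4, at 18.6 and 8.10.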

How the data were processed

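MARS-seq libraries of sorted lung fibroblasts from 5 DOX-treated and 4 PBS-treated mice were analysed. The authors aligned the reads to mm10 by STAR and used HTSeq-count for the counts per gene, with versions and strand setting not given in the sources used here. Each deposited table holds a normalized signal per gene over 55421 lines, and 119 repeated symbols were summed. Dividing by a single step per library gave whole reads for 100% of the values (tolerance 1e-06), the steps being those of DESeq2's median-of-ratios size factors. Counting errors cover the counting of reads only. Between pairs of libraries the chi-square per degree of freedom was 11.4 to 41.4 within DOX and 8.51 to 26.6 within PBS, so that none was taken as a repeated deposit.

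The main test was limma 3.58.1 in R 4.3.3, with a trend of the variance on the mean, a pseudocount of 1 on the log2 scale and no covariate or block. Genes entered it at a value of 10 or above in 4 or more libraries, and p-values were adjusted by Benjamini-Hochberg with a threshold of 0.05. Genes below the filter were fitted over all 17428 genes above 0. Fold changes on this scale understate the change of low genes. The recovered reads were tested with edgeR 4.0.16, with DESeq2 1.42.0 and with limma-voom. Tables and figures were made in Python 3.11.15 (NumPy 2.4.6, pandas 2.3.3, matplotlib 3.10.9). Simulated counts with 200 changed genes were used to check limma and edgeR. Alternatives covered the pseudocount (0.5 and 5), the filter (none, 5 in 4 libraries, 10 in 2 libraries), the scaling, the test, each library left out, PBS replicate 4 and DOX replicate 2 left out together, the replicate number as a block and a pan-immune covariate.

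Positions and strands are from GENCODE M21 on mm10, which held 98.3% of the symbols above 0, and promoters are from RefSeq on GRCm38.p6. The 10 genes, the 14 related lists and the 10 cell type marker lists were chosen with earlier results of these data known. Named were the 10 genes, genes on their opposite strand, the strand pairs, up to 3 tested genes of lowest p in each related list, and for the 3 of the 10 genes with the highest mean level the 3 most correlated genes. Nfkbia, Tgm2 and single genes of the marker lists were named as well.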

Additional observations from a re-analysis of the deposited data

Results flagged for a closer look

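Values of the 10 genes and of the genes opposite to them were checked within each group for a library far from the others of its group, in 28 sets of values, of which 3 stood out. Chance alone gives about 1 in 20 where values spread normally. That rate was not computed for these sets, which include low counts. Cebpd was at 235.7 in DOX replicate 1, against 189 to 198 in the other 4 DOX libraries, a gap of 0.796 of the group's range. Zfp36 was highest in the same library, at 76.1, against 47.1 to 54.1 in the other DOX libraries, a gap of 0.758 of the range. Fkbp5 was at 5.81 in DOX replicate 2, against 0 to 1.02 in the other DOX libraries, a gap of 0.824 of the range, which stands for 3 reads.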

How the results depend on the processing

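The number of genes called was 0 under all alternatives except without a filter, where it was 3 of 17428, none of them among the 10 genes. With libraries left out it was 0 throughout, the number of the 10 genes with a higher mean in DOX was 2 to 6, the 2 being without PBS replicate 4, and the median of their log2 fold changes was -0.29 to 0.060. Of 181 alternative values of single genes among the 10, 16 turned sign, and none was called. With libraries left out, the log2 fold change was -0.26 to 0.060 for Cebpd, -0.29 to 0.82 for Dusp1, -1.17 to 0.20 for Errfi1, -0.29 to 0.94 for Sgk1 and -0.22 to 0.20 for Zfp36, and for the opposite genes -0.18 to 0.68 for Gm44710 and -0.43 to 0.81 for Tmem189. Zfp36, fitted at 0.0013, turned to -0.0021 with a pseudocount of 5, -0.021 with limma-voom, -0.045 with edgeR, -0.051 with DESeq2 and -0.014 with the pan-immune covariate. Limma-voom turned Gm44710 to -0.33 and Tmem189 to -0.30, and a pseudocount of 0.5 turned Tmem189 to -0.0072. The cause of these turns was not tested. With the replicate number as a block, which leaves out DOX replicate 5, 0 of 2450 genes were called, 152 had an unadjusted p under 0.05, and Sgk1 turned to -0.29, as it also did without DOX replicate 5 alone. Deviations of libraries of the same number correlated weakly and positively (0.021 to 0.067 over the 4 numbers). For numbers 1, 2 and 4, the DOX and the PBS library each correlated best with the other. For number 3 neither did.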
